A study of Homo sapiens with 12 samples.

Results

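The 10 genes described here encode proteins that fold, store, nucleate or bind tubulin, or that recognise tubulin chains as they are made. They are TTC5 of tubulin autoregulation, the folding cofactors TBCA, TBCB, TBCC, TBCD and TBCE, stathmin (STMN1), the microtubule-associated proteins MAP4 and MAP7, and gamma-tubulin (TUBG1). They were picked by symbol from a deposited table of 58735 genes and took up 11 rows, because TBCE is listed at 2 overlapping loci. Of these rows, 10 reached a mean of 1 FPKM (fragments scaled by gene length and library size) and belong to the 13609 genes tested, and the second TBCE locus did not. The RNA came from TFK1, an established human cholangiocarcinoma line labelled wild type, and the stated question is how nab-paclitaxel, paclitaxel carried on albumin that stabilises microtubules, adds to radiotherapy. There were 3 libraries in each of 4 groups, namely nab-paclitaxel at 1.62 ng/ml combined with 6 Gy of radiation (combination), nab-paclitaxel at 1.62 ng/ml alone, radiation of 6 Gy alone, and an untreated control. All groups shared the line, RPMI medium with serum and antibiotics, and RNA collection at 24 h, and the order of drug and irradiation is not given in the sources used here. A single line was used, and nothing says that the labelled biological replicates were separate cultures, so p-values measure the spread between these libraries, which may be technical.

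Between 14840283 and 17992242 fragments stood behind each library. For the tested members these were 244 to 6493 fragments per gene and library, so that counting error alone was at most 6.40% of a value. Of 8 biliary and epithelial markers 6 were expressed, with the keratins KRT19, KRT8 and KRT18 highest, whereas KRT7 (mean 0.533 FPKM) was below 1 FPKM. None of 5 macrophage and 4 hepatocyte markers reached 1 FPKM, and 1 of 5 fibroblast markers, COL1A1, did. The biliary and epithelial markers summed to 1345 to 1702 FPKM in the combination and 1183 to 1332 in nab-paclitaxel. The sums were 1104 to 1181 in radiation and 719 to 905 in control. They are mostly keratin, and the markers did not all move together. Against control, 4 of the 6 passed limma upward and 1 downward in both the combination and nab-paclitaxel (adjusted p under 0.05). In radiation 2 passed upward and 0 downward. CDH1 averaged 37.5 FPKM in the combination against 49.1 in control, and EPCAM 108.5 against 105.8. The part of these markers in the results was not tested. The libraries control 2, nab-paclitaxel 1 and combination 2 each lay highest of their group on the second principal component (30.6, 28.6 and 3.64). Some library is highest in any group, and combination 2 was near control 1 (0.762). Values without these libraries are given where a member's result moved most. In RNA from whole cultures, fewer cells of a kind and less RNA per cell cannot be told apart.

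Tubulin is folded in steps. Prefoldin hands new chains to the chaperonin CCT, TBCA and then TBCD receive beta-tubulin, TBCB and then TBCE receive alpha-tubulin, and TBCC joins the cofactor complex and releases the finished dimer. Cells also sense free dimer: when it is in excess, TTC5 binds the start of a tubulin chain as it leaves the ribosome and, through SCAPER, brings the CCR4-NOT deadenylase to the mRNA. Stathmin holds free dimers and destabilises microtubule ends, MAP4 and MAP7 bind the microtubule wall, and gamma-tubulin forms the ring from which microtubules start.

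The element that TTC5 reads is the opening amino acids of alpha- and beta-tubulin (methionine, arginine, glutamate, then isoleucine or cysteine). The amino acids encoded, rather than the exact bases, thus mark which mRNAs of the pathway can be its substrates. The first 24 coding bases are given 5′ to 3′ from GENCODE release 29 transcripts on GRCh38, with the first 12 in capitals.
TUBB: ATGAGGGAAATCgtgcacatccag
TUBB4B: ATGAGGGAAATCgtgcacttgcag
TUBA1B: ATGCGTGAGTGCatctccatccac
TUBG1: ATGCCGAGGGAAatcatcacccta
The start codons lie at chr6:30720507-30720509 (plus strand) for TUBB, chr9:137241361-137241363 (plus) for TUBB4B, chr12:49131298-49131300 (minus) for TUBA1B and chr17:42609738-42609740 (plus) for TUBG1. All 17 alpha- and beta-tubulin genes carried codons of the element, as did all 10 of them that were tested. TUBG1 did not, as a proline codon follows its start codon. Directly after that proline come arginine, glutamate and isoleucine codons, with the same bases as in TUBB. Position by position, TUBG1 differed from TUBB at 8 of the first 12 bases. TUBA1B, which carries codons of the element, differed at 5.

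On the FPKM scale, which allows for gene length, STMN1 was highest at a mean of 36.8 FPKM over the 12 libraries, above 93.5% of tested genes. TBCA (21.4), MAP4 (21.1), TUBG1 (19.2), TBCB (15.3), TBCC (11.1), MAP7 (9.59) and TBCD (9.54) followed. TTC5 (2.11) and TBCE (1.74) were lowest, above 19.5% and 14.6% of tested genes. The ranges of neighbours in this order overlapped, except that every TBCD value exceeded every TTC5 value. STMN1 exceeded TBCA, and TBCB exceeded TBCC, within each of the 12 libraries.

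**Figure D1:**
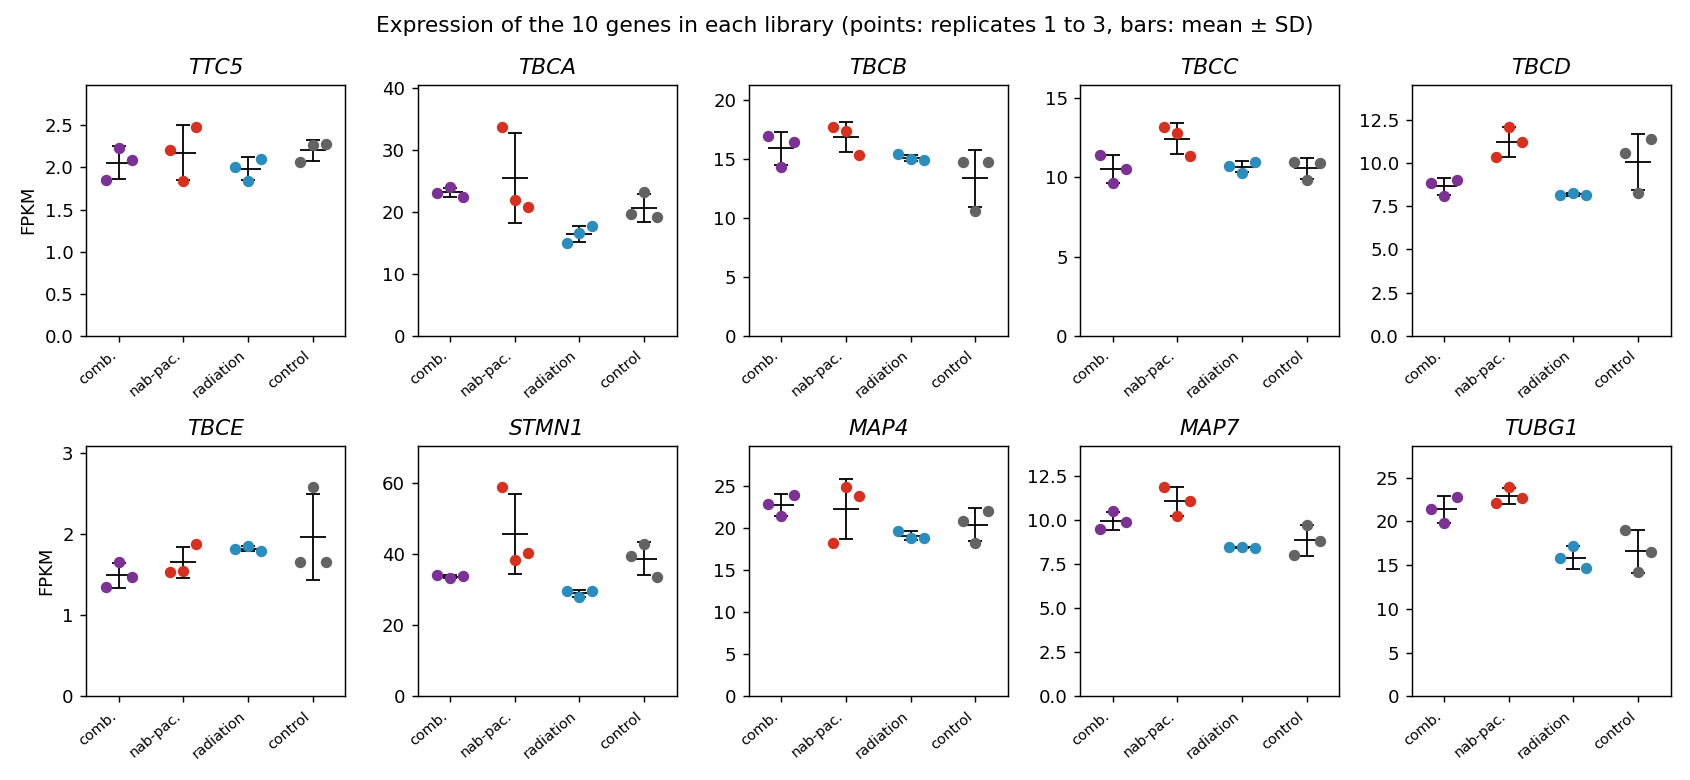
Expression (FPKM, linear axes from 0) of the 10 genes in each library, with points for replicates 1 to 3 and bars for mean ± SD of each group, from left combination, nab-paclitaxel, radiation and control. TUBG1 lies between 19.8 and 23.9 FPKM in the 6 libraries with drug and between 14.2 and 19.1 FPKM in the 6 without. How many of all tested genes split this way was not counted.

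Of the 10 genes, only TUBG1 passed the test in any comparison, and it was higher with drug each time. A gene is said here to have risen or fallen where limma gave it an adjusted p under 0.05 on log2(FPKM + 1), over all tested genes. Log2 fold changes carry their SE, and FPKM means their SD, with n = 3 libraries per group. In the combination against control 1 of 10 members rose and 0 fell, where 22.9% of all tested genes changed, 12.2% upward and 10.6% downward. In nab-paclitaxel against control 1 of 10 rose and 0 fell, where 8.82% of tested genes changed, 5.41% upward and 3.41% downward. In radiation against control 0 of 10 changed, where 5.93% of tested genes did, 2.48% upward and 3.45% downward. There limma gave 2 members an unadjusted p under 0.05, as it did 19.6% of tested genes, and voom, limma's count-based fit, also called 0 members. The combination against radiation had 1 of 10 risen and 0 fallen, where 7.75% of tested genes changed, 4.81% upward and 2.95% downward. There voom called 0 members, whereas it called TUBG1 in the combination and in nab-paclitaxel against control. The combination against nab-paclitaxel had 0 of 10 changed, where 3.92% of tested genes did, 1.21% upward and 2.70% downward. Here 3 members had an unadjusted p under 0.05, as did 17.6% of tested genes, and voom called 0. These shares are near the background, so the count of calls does not set the members apart from other genes. Without the 3 libraries that stood apart more genes passed, namely 5038, 1834, 2945, 4116 and 1292 of 13664 in the order above. Calls that members gained in that fit are to be read beside these counts.

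The median log2 fold change of the members was 0.07 in the combination against control, 0.22 in nab-paclitaxel against control and -0.07 in radiation against control. Over all tested genes the medians were 0.00, 0.04 and -0.02. In nab-paclitaxel against control 8 of 10 values were positive, and 4 members (TBCB, TBCC, MAP7 and TUBG1) had all 3 nab-paclitaxel libraries above all 3 controls, as 15.5% of tested genes did. Against radiation, the combination had 5 members (TBCA, STMN1, MAP4, MAP7 and TUBG1) higher without overlap, as 23.9% of tested genes were, and TBCE lower, as 16.5% were. Against control, it had TUBG1 higher without overlap, as 19.5% of tested genes were, and TBCE lower, as 17.8% were. Against nab-paclitaxel, it had TBCD and STMN1 lower without overlap, as 12.3% of tested genes were. In radiation against control TBCB was higher without overlap, as 12.4% of tested genes were, and TBCA and STMN1 were lower, as 16.0% were. The 3 comparisons with control share the control libraries, the 3 with the combination share its libraries, and those with nab-paclitaxel or with radiation share these.

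**Figure D2:**
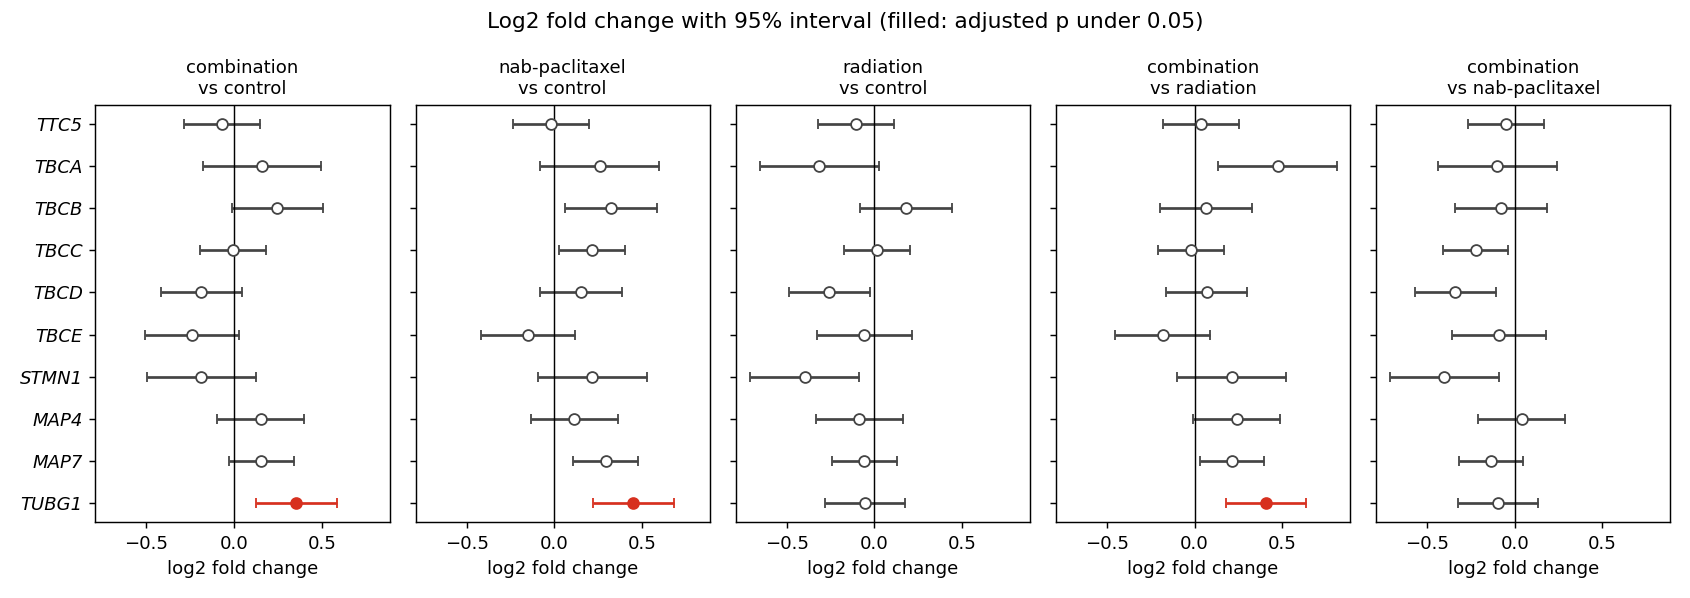
Log2 fold change on log2(FPKM + 1) of each gene in 5 comparisons, with 95% intervals from limma; filled red points have an adjusted p under 0.05. TUBG1 is the filled point in the combination and nab-paclitaxel against control and in the combination against radiation, and all other points are open.

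For no member did the effect of the drug under radiation differ detectably from its effect alone. The interaction was called in 0 of 13609 genes by limma and in 0 by voom, with 0 members and 443 genes (3.26%) at an unadjusted p under 0.05. It was -0.01 with a 95% interval of -0.45 to 0.43 for STMN1, and -0.04 with an interval of -0.37 to 0.28 for TUBG1. The most negative value was that of TBCB, -0.26 with an interval of -0.63 to 0.11.

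TTC5 (ENSG00000136319, chromosome 14, 20256558 to 20305994 in GRCh38), the reader of the tubulin amino terminus, passed in no comparison. It stood at 1.85, 2.24 and 2.09 FPKM in the combination, 2.21, 1.84 and 2.48 in nab-paclitaxel, 2.01, 1.84 and 2.10 in radiation, and 2.06, 2.27 and 2.28 in control. The 4 groups overlapped. Against control the log2 fold change was -0.07 ± 0.10 in the combination (95% interval -0.28 to 0.15), -0.02 ± 0.10 in nab-paclitaxel (-0.23 to 0.20) and -0.10 ± 0.10 in radiation (-0.32 to 0.11). These estimates and intervals are narrowed by the 1 FPKM added before the logarithm, as TTC5 is low. Part of its exons, 7.63% of bases, is shared with the lincRNA AL356019.2 on the same strand, so reads there cannot be assigned. SCAPER, which links TTC5 to the deadenylase, averaged 1.14 ± 0.184 FPKM in the combination, 1.16 ± 0.215 in nab-paclitaxel, 1.12 ± 0.0527 in radiation and 1.10 ± 0.223 in control, and did not pass in any comparison. Of the 15 tested autoregulation and CCR4-NOT genes, TOB1, an adaptor that recruits the deadenylase to mRNAs, rose in the combination (0.42 ± 0.10, adjusted p = 0.00910) and in nab-paclitaxel (0.36 ± 0.10, adjusted p = 0.0391). CNOT9, a core subunit of the complex, fell in radiation (-0.35 ± 0.07, adjusted p = 0.0147), and the other members of this list did not pass against control. TOB1 kept its call in the combination in all 12 fits that left out 1 library, but in nab-paclitaxel in 4 of 12 (those without combination 1 or 2, nab-paclitaxel 3 or control 2). CNOT9 was not called without radiation 2, radiation 3 or control 1 (adjusted p up to 0.0805).

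Most tested mRNAs that encode the element were higher with drug. Of the 10 tested alpha- and beta-tubulin genes 7 rose and 0 fell in the combination (median 0.63), 9 rose and 0 fell in nab-paclitaxel (median 0.79), and 1 rose and 2 fell in radiation (median 0.14). These counts were 8 and 0, 9 and 0, and 3 and 4 without the 3 libraries that stood apart. With only the groups compared in the fit, 0 of 10 were called in nab-paclitaxel, where 8 genes in all were. TUBB4B had 173.7, 143.8 and 171.6 FPKM in the combination, 199.7, 203.4 and 188.1 in nab-paclitaxel, 91.5, 96.5 and 90.8 in radiation, and 113.4, 88.2 and 110.4 in control. Its 6 libraries with drug lay above its 6 without, a split whose share among all tested genes was not counted. TUBB, the most abundant beta-tubulin gene by mean, fell in radiation, at 86.0 ± 1.68 FPKM against 127 ± 1.95 in control (-0.56 ± 0.07, adjusted p = 0.00135). TUBA1B, an alpha-tubulin gene, also fell in radiation (-0.63 ± 0.11), whereas TUBA4A rose (0.56 ± 0.11), a call lost without radiation 1 (adjusted p = 0.0585). Near-identical tubulin genes and their pseudogenes can share reads, so single tubulin genes are uncertain.

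Summed over the 17 genes, alpha- and beta-tubulin mRNA averaged 513 ± 27.3 FPKM in the combination, 627 ± 20.9 in nab-paclitaxel, 310 ± 4.76 in radiation and 363 ± 23.4 in control, and no 2 groups overlapped. TTC5 per 1000 FPKM of tubulin was 3.53, 4.64 and 3.92 in the combination, 3.41, 2.94 and 4.10 in nab-paclitaxel, 6.43, 5.88 and 6.92 in radiation, and 5.50, 6.75 and 6.05 in control. Every library with drug was thus lower in this ratio than every library without, while TTC5 itself overlapped between groups. No test was made of these ratios.

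**Figure D3:**
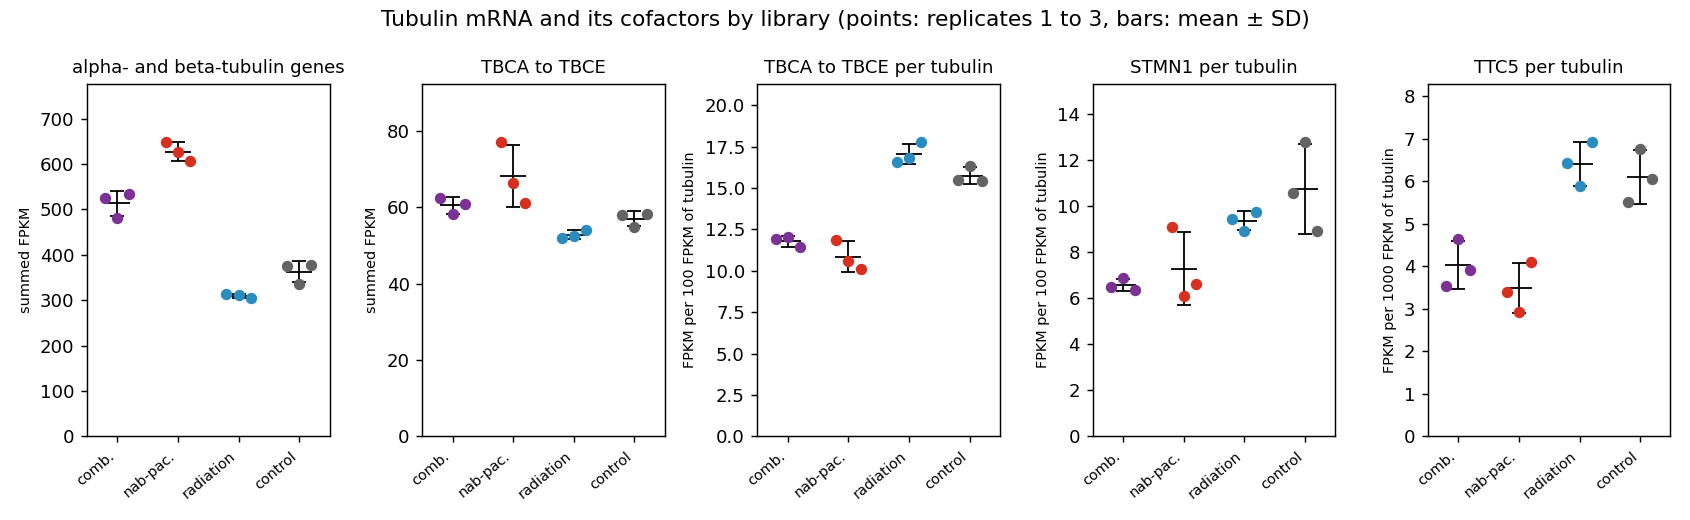
Summed FPKM of the 17 alpha- and beta-tubulin genes, summed FPKM of TBCA to TBCE, and the cofactors, STMN1 and TTC5 relative to tubulin mRNA, by library (points) with mean ± SD, from left combination, nab-paclitaxel, radiation and control. The cofactor sum is 60.5 FPKM in the combination, 68.1 in nab-paclitaxel, 52.8 in radiation and 57.1 in control, while the tubulin sum spans 310 to 627.

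The folding cofactors did not pass the test in any comparison, and they did not move as a block. In nab-paclitaxel 4 of the 5 had a positive log2 fold change against control (TBCA 0.26 ± 0.15, TBCB 0.33 ± 0.12, TBCC 0.22 ± 0.09 and TBCD 0.15 ± 0.11), and TBCE had -0.15 ± 0.12. In the combination TBCB had 0.25 ± 0.12 and TBCA 0.16 ± 0.15, TBCC was at -0.01 ± 0.09, and TBCD (-0.19 ± 0.11) and TBCE (-0.24 ± 0.12) were negative. In radiation TBCA (-0.31 ± 0.15) and TBCD (-0.26 ± 0.11) were the most negative and TBCB was positive (0.18 ± 0.12). Several of these values rest on 1 library. In nab-paclitaxel TBCA was 0.05 without nab-paclitaxel 1, and without control 2 TBCB was 0.18, TBCD 0.03 and TBCE -0.01. Also without control 2, TBCB was 0.10 in the combination and 0.03 in radiation.

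TBCA (ENSG00000171530, chromosome 5, 77691166 to 77868780), the first beta-tubulin acceptor after CCT, had 23.0, 23.9 and 22.4 FPKM in the combination, 33.7, 21.8 and 20.7 in nab-paclitaxel, 15.0, 16.6 and 17.6 in radiation, and 19.5, 23.2 and 19.1 in control. Radiation was lowest and overlapped with no other group, and the spread in nab-paclitaxel came from replicate 1. The combination against radiation gave 0.47 ± 0.15 (95% interval 0.14 to 0.81, adjusted p = 0.0832), the largest estimate among the members that were not called. Without nab-paclitaxel 1 the adjusted p was 0.00810 there, and in radiation against control 0.0483 in place of 0.298. Without the 3 libraries that stood apart TBCA was called in both (0.45, adjusted p = 0.00293, and -0.23, adjusted p = 0.0430) and in the combination against control (0.22, adjusted p = 0.0452). Over the 25 alternatives the adjusted p ran between 0.00166 and 0.245 for the combination against radiation, between 0.0430 and 0.582 for radiation against control, and between 0.0452 and 0.712 for the combination against control.

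TBCD (ENSG00000141556, chromosome 17, 82752064 to 82945922), the cofactor that takes beta-tubulin from TBCA, had 8.87, 8.08 and 9.03 FPKM in the combination, 10.3, 12.1 and 11.2 in nab-paclitaxel, 8.14, 8.29 and 8.17 in radiation, and 10.6, 8.25 and 11.4 in control. The 6 irradiated libraries lay between 8.08 and 9.03 FPKM, and 5 of the 6 others above 10, control 2 being the exception. The combination against nab-paclitaxel gave -0.34 ± 0.11 (95% interval -0.57 to -0.11, adjusted p = 0.111), with no overlap. Without control 2 the call was made in this comparison (adjusted p = 0.0260), in radiation against control (-0.38, adjusted p = 0.0255) and in the combination against control (-0.31, adjusted p = 0.0226). All of these were called too without the 3 libraries that stood apart, at -0.35 (adjusted p = 0.0107), -0.38 (adjusted p = 0.00280) and -0.27 (adjusted p = 0.00883). Over the 25 alternatives the adjusted p ran from 0.00321 to 0.317, from 0.00141 to 0.488 and from 0.00883 to 0.562 in these comparisons. B3GNTL1 on the other strand shares 5.81% of the exon bases of TBCD.

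TBCB (ENSG00000105254, chromosome 19, 36114289 to 36125947), the first alpha-tubulin acceptor, had 16.9, 14.3 and 16.4 FPKM in the combination, 17.7, 17.4 and 15.4 in nab-paclitaxel, 15.4, 15.0 and 14.9 in radiation, and 14.7, 10.6 and 14.8 in control. All nab-paclitaxel and radiation libraries lay above the controls, while combination 2 overlapped with them, and control 2 was the lowest library. Its log2 fold change in nab-paclitaxel was 0.33 ± 0.12 (adjusted p = 0.107), and in no alternative fit was it called in any comparison. POLR2I on the other strand shares 12.5% of its exon bases, and the sources used here do not say if reads were counted by strand.

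TBCC (ENSG00000124659, chromosome 6, 42744481 to 42746096), which triggers release of the dimer, had 11.4, 9.62 and 10.6 FPKM in the combination, 13.2, 12.8 and 11.3 in nab-paclitaxel, 10.7, 10.3 and 11.0 in radiation, and 11.0, 9.83 and 10.9 in control. The nab-paclitaxel libraries lay above those of radiation and control, and the other groups overlapped. The estimate in nab-paclitaxel was 0.22 ± 0.09 (adjusted p = 0.130), and against radiation and control the combination stayed at -0.02 ± 0.09 and -0.01 ± 0.09. No alternative fit called TBCC in any comparison.

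TBCE (ENSG00000284770, chromosome 1, 235367360 to 235452443), the cofactor that takes alpha-tubulin from TBCB, had 1.35, 1.66 and 1.47 FPKM in the combination, 1.54, 1.55 and 1.88 in nab-paclitaxel, 1.82, 1.86 and 1.80 in radiation, and 1.66, 2.58 and 1.66 in control. The combination lay below radiation and, narrowly at replicate 2, below control, and control 2 was far above the other libraries. Its log2 fold change in the combination against control was -0.24 ± 0.12 (adjusted p = 0.184), and -0.10 without control 2 (adjusted p = 0.522). The added 1 FPKM understates fold changes of genes this low, and over 24 alternatives the estimate ran from -0.39 to -0.10. The second TBCE locus (ENSG00000285053, chromosome 1, 235328570 to 235448952) averaged 0.846 ± 0.260 FPKM in the combination, 0.561 ± 0.0770 in nab-paclitaxel, 0.651 ± 0.110 in radiation and 0.465 ± 0.0659 in control, on 31 to 91 fragments per library. The loci share 2232 exon bases, so the split of reads between them is uncertain, and the second was under the limit for testing.

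Summed over both TBCE loci and the other cofactors, the cofactor mRNAs spanned a narrower range than tubulin mRNA, a difference that was not tested. The sum was 60.5 ± 2.22 FPKM in the combination, 68.1 ± 8.08 in nab-paclitaxel, 52.8 ± 1.12 in radiation and 57.1 ± 1.93 in control. Per 100 FPKM of tubulin it was 11.9, 12.1 and 11.4 in the combination, 11.9, 10.6 and 10.1 in nab-paclitaxel, 16.6, 16.8 and 17.8 in radiation, and 15.5, 16.3 and 15.5 in control. The 6 libraries with drug had 10.1 to 12.1 FPKM of cofactor per 100 of tubulin, and the 6 without had 15.5 to 17.8.

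Of the chaperones before the cofactors, 14 prefoldin and CCT genes were tested. In the combination 2 rose (CCT8 0.46 ± 0.13 and CCT4 0.46 ± 0.14) and 0 fell, with a median of 0.23 and 13 of 14 values positive. In nab-paclitaxel 3 rose (CCT2 0.41 ± 0.09, CCT5 0.32 ± 0.08 and TCP1 0.43 ± 0.11) and 0 fell, with a median of 0.35 and all 14 positive. In radiation 0 passed, with a median of -0.11 and 1 of 14 positive. All 5 named genes encode subunits of the chaperonin ring. Without the 3 libraries that stood apart the counts were 7 and 0 in the combination, 8 and 0 in nab-paclitaxel, and 0 and 2 in radiation, and under quantile normalization 0 rose in nab-paclitaxel. Leaving out single libraries gave 0 to 4 risen in the combination, with 0 without combination 1, combination 3 or control 3, and 0 to 5 in nab-paclitaxel, with 0 without control 3. Over these 12 fits CCT8 was called in 7 and CCT4 in 4 in the combination, and CCT2 in 10, TCP1 in 5 and CCT5 in 3 in nab-paclitaxel. Of 7 cofactor relatives and partners, PDCL3, a phosducin-like helper of CCT, rose in nab-paclitaxel (0.46 ± 0.12, adjusted p = 0.0413; called in 3 of the 12 fits, and 0.30 with adjusted p = 0.0917 without the 3 libraries that stood apart), and ARL2, the small GTPase that works with TBCD, passed in no comparison.

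**Figure D4:**
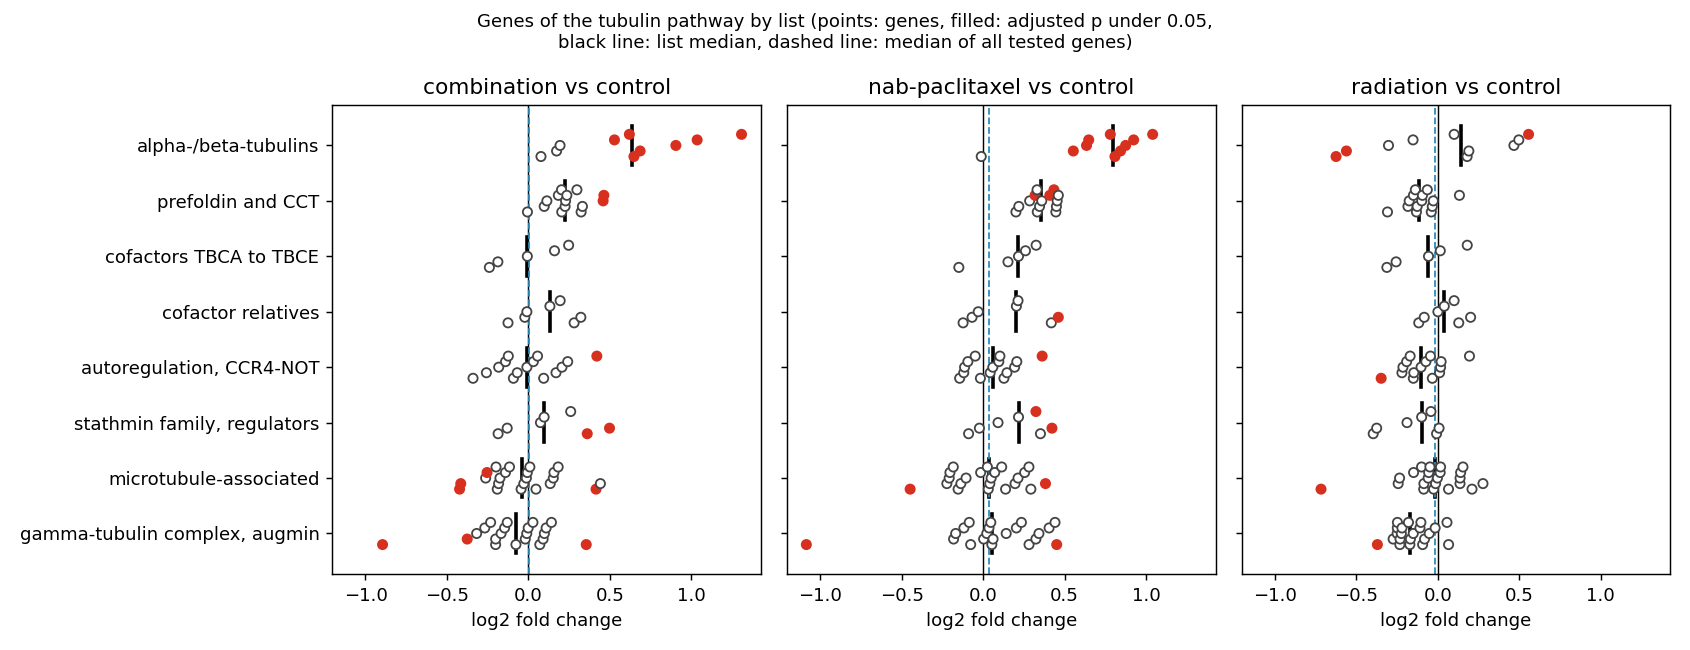
Log2 fold change of the tested genes of each list against control (points, filled red where the adjusted p is under 0.05), with the list median as a black line and the median of all tested genes dashed. The alpha- and beta-tubulin genes have medians of 0.63 in the combination, 0.79 in nab-paclitaxel and 0.14 in radiation, while cofactors TBCA to TBCE have no filled point.

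STMN1 (ENSG00000117632, chromosome 1, 25884181 to 25906991), which holds tubulin dimers and is switched off by phosphorylation in mitosis, did not pass in any comparison. It had 34.0, 33.1 and 33.9 FPKM in the combination, 58.7, 38.3 and 40.2 in nab-paclitaxel, 29.5, 27.9 and 29.6 in radiation, and 39.5, 42.8 and 33.6 in control. Radiation was lowest, below every library of the other groups, the combination lay below nab-paclitaxel, and the highest value was nab-paclitaxel 1. In radiation against control the log2 fold change was -0.40 ± 0.14 (95% interval -0.71 to -0.09, adjusted p = 0.138), and in the combination against nab-paclitaxel -0.40 ± 0.14 (95% interval -0.71 to -0.09, adjusted p = 0.160), which was -0.21 without nab-paclitaxel 1 (adjusted p = 0.257). Without nab-paclitaxel 1 the estimate for radiation against control was the same and called (adjusted p = 0.0156), and without the 3 libraries that stood apart it was -0.32 (adjusted p = 0.0143), with a range of 0.00526 to 0.336 over the 25 alternatives. The combination against radiation (0.21 ± 0.14, adjusted p = 0.386) was called without those 3 libraries (0.22, adjusted p = 0.0421), with a range of 0.0358 to 0.831.

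Per 100 FPKM of tubulin, STMN1 was 6.48, 6.88 and 6.36 in the combination, 9.07, 6.11 and 6.63 in nab-paclitaxel, 9.44, 8.92 and 9.72 in radiation, and 10.5, 12.7 and 8.90 in control. The combination lay below radiation and control, and nab-paclitaxel 1 overlapped with both. STMN3, a stathmin best known from neurons, rose in the combination, at 51.9 ± 3.25 FPKM against 36.5 ± 3.23 in control (0.50 ± 0.09, adjusted p = 0.00245), and in nab-paclitaxel (0.42 ± 0.09, adjusted p = 0.0168). In radiation STMN3 had -0.04 ± 0.09. PPP2R1A, the scaffold subunit of the phosphatase that acts on stathmin, also rose in the combination (0.36 ± 0.09) and in nab-paclitaxel (0.32 ± 0.09), and the other 5 tested genes of this list did not pass. The PPP2R1A call in nab-paclitaxel (adjusted p = 0.0470) was lost whichever of the 12 libraries was left out, and that in the combination without combination 1 (adjusted p = 0.0603), while STMN3 kept both. Without the 3 libraries that stood apart 3 genes of the list rose in the combination, 3 rose in nab-paclitaxel and 3 fell in radiation.

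STMN1 is often read as a proliferation gene, and it was set beside 10 such genes. Of these, 1 rose and 7 fell in the combination (median -0.59), 3 rose and 0 fell in nab-paclitaxel (median 0.08), and 0 rose and 9 fell in radiation (median -0.81), where the STMN1 estimate was -0.40. The 3 in nab-paclitaxel became 1 without control 1 and 0 without control 3, and the 9 in radiation became 5 without radiation 2 or radiation 3. These counts were 1 and 8, 3 and 0, and 0 and 9 without the 3 libraries that stood apart. E2F1, a transcription factor of entry into DNA replication, had -1.22 ± 0.11 in the combination against control and -0.72 ± 0.11 in radiation. Against nab-paclitaxel, 8 of the 10 fell in the combination (median -0.72), with STMN1 at -0.40 (-0.21 without nab-paclitaxel 1) and TUBG1 at -0.10. That count was 5 without combination 1 or nab-paclitaxel 2 and 4 without combination 2, combination 3 or nab-paclitaxel 3. Whether the share of cycling cells had a part in the member values was not tested.

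MAP4 (ENSG00000047849, chromosome 3, 47850690 to 48089272), the main microtubule stabiliser of non-neuronal cells, had 22.9, 21.4 and 23.9 FPKM in the combination, 18.2, 24.8 and 23.8 in nab-paclitaxel, 19.7, 18.8 and 18.8 in radiation, and 20.9, 18.3 and 22.0 in control. The combination lay above radiation, all other pairs overlapped, and nab-paclitaxel 1 was the lowest library. The combination against radiation gave 0.24 ± 0.11 (adjusted p = 0.213), and without the 3 libraries that stood apart 0.28 (adjusted p = 0.00518, over a range of 0.00339 to 0.656). Without them radiation against control was -0.16 (adjusted p = 0.0493, range 0.0493 to 0.945), against -0.09 ± 0.11 with all libraries.

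MAP7 (ENSG00000135525, chromosome 6, 136342281 to 136550819), which binds the microtubule wall and recruits kinesin-1, came closest to the threshold after TUBG1. It had 9.50, 10.5 and 9.90 FPKM in the combination, 11.9, 10.2 and 11.1 in nab-paclitaxel, 8.46, 8.46 and 8.45 in radiation, and 8.01, 9.73 and 8.83 in control. The nab-paclitaxel libraries lay above all of radiation and control, and the combination above radiation. The radiation values differed by less than their counting error, which is at most 3.79% for this gene. In nab-paclitaxel against control the log2 fold change was 0.29 ± 0.08 (95% interval 0.11 to 0.48, adjusted p = 0.0515). It was called without control 2 (0.36, adjusted p = 0.0323), without the 3 libraries that stood apart (0.31, adjusted p = 0.0202) and among genes of at least 5 FPKM (adjusted p = 0.0466), with a range of 0.00181 to 0.256. In the combination against control the estimate was 0.16 ± 0.08 (adjusted p = 0.200).

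Among the 22 tested microtubule-associated and end-binding genes, 1 rose and 3 fell in the combination, 1 rose and 1 fell in nab-paclitaxel, and 0 rose and 1 fell in radiation. MAP7D3, a relative of MAP7, rose in the combination (0.42 ± 0.11, adjusted p = 0.0219). MAP2, a neuronal microtubule stabiliser, fell in the combination (-0.42 ± 0.09, adjusted p = 0.00672), and MAP1B, another neuronal one, fell in the combination (-0.42 ± 0.11) and in nab-paclitaxel (-0.45 ± 0.11). TPX2, a spindle assembly factor, fell in the combination (-0.25 ± 0.07), rose in nab-paclitaxel (0.38 ± 0.07) and fell in radiation (-0.72 ± 0.07). MAP2 in the combination and TPX2 in nab-paclitaxel and radiation were called in all 12 fits that left out 1 library. MAP7D3 was called in 9 (not without combination 2, control 1 or control 3), MAP1B in 9 in the combination (not without combination 1, combination 3 or control 2) and in 3 in nab-paclitaxel (those without combination 1 or 2 or nab-paclitaxel 3), and TPX2 in the combination in 5 (those without combination 2, control 3 or any 1 nab-paclitaxel library). The counts were 3 and 6 in the combination, 5 and 0 in nab-paclitaxel, and 1 and 4 in radiation when the 3 libraries that stood apart were left out.

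TUBG1 (ENSG00000131462, chromosome 17, 42609676 to 42615234), the gamma-tubulin of the nucleating ring, was the member that rose. It had 21.4, 19.8 and 22.8 FPKM in the combination, 22.1, 23.9 and 22.7 in nab-paclitaxel, 15.8, 17.2 and 14.6 in radiation, and 19.1, 14.2 and 16.5 in control. All 6 libraries with drug lay above all 6 without, and within each of these sets the groups overlapped. The share of all tested genes with this split was not counted. The first principal component, 28.9% of the variance, also split the libraries so, at 5.36 to 27.1 with drug and -20.6 to -11.6 without. The mean was 21.4 ± 1.50 FPKM in the combination, 22.9 ± 0.903 in nab-paclitaxel, 15.9 ± 1.29 in radiation and 16.6 ± 2.43 in control. The log2 fold change was 0.35 ± 0.10 in the combination against control (95% interval 0.13 to 0.58, adjusted p = 0.0307), 0.45 ± 0.10 in nab-paclitaxel against control (0.22 to 0.68, adjusted p = 0.0256) and 0.41 ± 0.10 in the combination against radiation (0.18 to 0.64, adjusted p = 0.0391). In radiation against control it was -0.05 ± 0.10 (-0.28 to 0.18), and in the combination against nab-paclitaxel -0.10 ± 0.10 (-0.33 to 0.13).

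The TUBG1 estimates kept their sign in all 25 alternatives of these 3 comparisons, but the calls are close to the threshold. Correlations of same-numbered libraries back a block by replicate number for control and combination only. With that block over all 4 groups, the adjusted p was 0.0567 in the combination against control, over a range of 0.0133 to 0.146. That call was also lost without combination 1 (0.0812), combination 3 (0.115), control 2 (0.0802) or control 3 (0.0728). In nab-paclitaxel against control it was lost without nab-paclitaxel 2 (0.0707), control 2 (0.0533) or control 3 (0.0651), over a range of 0.0124 to 0.169. In the combination against radiation it was lost without any one of combination 1 (0.105), 2 (0.0515) and 3 (0.148), nab-paclitaxel 2 (0.0509) and 3 (0.0541), radiation 1 (0.129), 2 (0.0732) and 3 (0.142), or control 3 (0.0530), over a range of 0.000856 to 0.175. TUBG1 was called in all 3 without the 3 libraries that stood apart. With voom it was not called in the combination against radiation (adjusted p = 0.0556), but was in the other 2. RETREG3 on the other strand shares 5.77% of its exon bases.

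Set against tubulin mRNA, TUBG1 was lowest in nab-paclitaxel. Per 100 FPKM of alpha- and beta-tubulin it was 4.09, 4.12 and 4.28 in the combination, 3.41, 3.81 and 3.75 in nab-paclitaxel, 5.04, 5.51 and 4.81 in radiation, and 5.08, 4.23 and 4.36 in control. The combination overlapped with control and nab-paclitaxel lay below every other group. TUBG2, the neighbouring and near-identical second gamma-tubulin gene, averaged 8.70 ± 0.292 FPKM in the combination, 8.16 ± 0.563 in nab-paclitaxel, 9.16 ± 0.424 in radiation and 8.72 ± 0.664 in control and passed in no comparison, and the split of reads between the pair is uncertain.

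The other genes of the nucleating ring and of augmin, which branches microtubules, did not pass upward against control. Of 21 tested, 1 rose and 2 fell in the combination, 1 rose and 1 fell in nab-paclitaxel, and 0 rose and 1 fell in radiation, TUBG1 being the one that rose each time. AKAP9, which anchors the ring at the Golgi and centrosome, fell in the combination, at 4.37 ± 0.709 FPKM against 9.00 ± 1.48 in control (-0.90 ± 0.13, adjusted p = 0.000901), and in nab-paclitaxel (-1.09 ± 0.13, adjusted p = 0.00163). TUBGCP3, a ring subunit, fell in the combination (-0.38 ± 0.08) and in radiation (-0.37 ± 0.08), where the call was lost without radiation 1, radiation 2, control 1 or control 3. The counts were 1 and 6 in the combination, 1 and 1 in nab-paclitaxel, and 0 and 6 in radiation without the 3 libraries that stood apart.

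Genes with the most similar pattern were sought among 11217 protein-coding genes by Pearson's r of log2(FPKM + 1) over the 12 libraries, which share group differences and library effects, so r is a description. For TUBG1 they were ELAC2 (0.981), CYC1 (0.971) and GAPDH (0.963), and for STMN1 RPL5 (0.985), BTF3 (0.980) and RPS7 (0.980). TBCA was nearest to CHD1L (0.967), TBCB to MRPL55 (0.966), TBCC to FTSJ1 (0.932), TBCD to RBM14 (0.978) and TBCE to BTBD7 (0.935). MAP4 was nearest to KANK2 (0.977) and MAP7 to INSIG1 (0.978), and TTC5 had the lowest best match, C5orf34 (0.851).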

How the data were processed

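The authors deposited gene lengths and FPKM values for the 12 libraries in 1 table, per the file headers, and per the submitters' processing notes the build is hg38. No aligner or counter is named in these sources. Gene length equalled the union of GENCODE release 29 exons for 58724 of 58735 genes. FPKM times length gave whole fragments for 100% of genes in every library (within 0.05), so depth was recovered, and intervals from it cover counting error only. From these values log2(FPKM + 1) was fitted with limma 3.58.1 in R 4.3.3 (trend, 4 groups sharing 1 spread, 8 residual and 3.39 prior degrees of freedom) for the 13609 genes that averaged 1 FPKM or more. Tests were two-sided with Benjamini-Hochberg adjustment within each of 6 contrasts over all tested genes, at 0.05. Fold changes on this scale understate those of low genes. limma's voom on the recovered fragments called 3251 genes in the combination, 1159 in nab-paclitaxel and 877 in radiation, each against control.

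The members and lists were chosen with earlier results of these data known. All 10 members are named, with up to 3 called genes of each list by smallest p (the 2 most expressed where none was called, some left out for length) and the best pattern matches; SCAPER, STMN3 in radiation, TUBB4B, TUBG2, ARL2 and some called genes in other comparisons were named after their values were seen. Deviations from group means correlated above 0.1 for all 3 same-numbered pairs of combination and control only (r = 0.233, 0.543 and 0.172), a pairing that comes from the data and not from the labels. For radiation and control r was -0.0791, -0.197 and -0.105, and for nab-paclitaxel and control -0.244, -0.492 and 0.172. A replicate block over all 4 groups is thus not backed outside combination and control. The fit was also run on counts simulated for each gene independently. That run had no effects shared within a library, so it cannot show how calls hold in these data. Alternatives were other pseudocounts, filters, scalings, weights, blocks, gene sets, voom, fewer groups and left-out libraries. The fit without control 2, nab-paclitaxel 1 and combination 2 was chosen after seeing the data. Leaving out libraries picked for lying apart narrows the shared spread, so its p-values are not independent support.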

Additional observations from a re-analysis of the deposited data

How the results depend on the processing

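No member reversed a called direction in any alternative, and 1352 member estimates kept direction and side of the threshold, 33 gained a call, 32 lost one and 61 changed sign without a call in either fit. With the replicate number as a block the calls were 0 in the combination against control, 0 in nab-paclitaxel against control (TUBG1 adjusted p = 0.0542) and 0 in the combination against radiation (0.0747), and the block changed no other call. Among the groups compared, only combination and control had correlations that back such a block. In these 3 comparisons 0 members were also called without a filter, under TPM scaling and under quantile normalization. With only the compared groups fitted, the counts were 0 in the combination and 0 in nab-paclitaxel against control and 4 in the combination against radiation, where size factors over tested genes and voom gave 0. The fit of only those groups called 2502 of 13609 genes in the combination against radiation. Array weights gave 3 in the combination, 2 in nab-paclitaxel and 2 in radiation against control, 5 in the combination against radiation and 2 in the combination against nab-paclitaxel. Over all 13609 genes array weights called 5560, 2826, 3469, 5013 and 2468 in that order. A minimum mean of 5 FPKM gave 2 in nab-paclitaxel against control, where 966 of 7482 genes were called. Without the 3 libraries that stood apart the counts were 3, 2, 4, 4 and 1 in the same order. Over all 13664 genes of that fit they were 5038, 1834, 2945, 4116 and 1292. Leaving out single libraries gave 0 to 1 in the combination, 0 to 1 in nab-paclitaxel and 0 to 2 in radiation against control, 0 to 2 in the combination against radiation and 0 to 1 in the combination against nab-paclitaxel. The cause of these changes was not tested. Alpha- and beta-tubulin calls in nab-paclitaxel ran from 8 to 9 of 10 when single libraries were left out and were 8 under TPM scaling and quantile normalization, and 0 with only the groups compared, where 8 genes in all were called. Higher and lower calls over all genes in nab-paclitaxel against control were 736 and 464, but 381 and 408 under quantile normalization and 539 and 555 with size factors over tested genes. In the combination against radiation they were 654 and 401, but 355 and 359 under TPM scaling, 449 and 412 under quantile normalization and 499 and 481 with size factors. TBCC, on 244 to 363 fragments, is limited most by depth, followed by TBCE (297 to 493) and TTC5 (313 to 434).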
